A study of Mus musculus with 14 samples.

Results

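The genes described here are 9 transcription factors of the cerebellar granule cell lineage: Atoh1, Zic1, Zic2, Pax6, Neurod1, Eomes, Meis1, En1 and En2. They were taken by symbol from the array's probe annotation, and all 9 are on the array, among 8251 genes with a symbol of their own. They have 11 probe sets, of 12422 that were tested: Eomes and Zic2 have 2 each and each other gene has 1. The study compared 3 stages on 14 expression arrays. Granule cell precursors (GCP, n = 4) came from mice aged 7 days, preneoplastic cells (pretumor, n = 5) from mice aged 6 weeks, and tumor cells (tumor, n = 5) from mice aged 10 to 25 weeks with signs of medulloblastoma, a tumor of the cerebellum. Per the labels all mice were patched heterozygotes kept by breeding to 129X1/SvJ, so every group carries the mutation and there is no wild type group. The cells were the unsorted fraction of dissociated cerebellum from the border between 2 Percoll steps. Age and stage change together between the groups and cannot be told apart. The labels do not say whether samples of a stage were separate animals or litters, and p-values therefore reflect sample-to-sample spread that may be technical.

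Granule neurons arise from the rhombic lip, whose cells switch on the basic helix-loop-helix factor Atoh1 and then form a dividing layer on the cerebellar surface. Dividing precursors carry the zinc finger factors Zic1 and Zic2 and the paired-box factor Pax6, and Neurod1, another basic helix-loop-helix factor, comes on as they leave the cell cycle and mature. Eomes, a T-box factor, marks unipolar brush cells, an excitatory interneuron from the same lip. Meis1 is a homeodomain cofactor of granule cells, and the homeodomain factors En1 and En2 pattern the midbrain and hindbrain. Medulloblastoma of patched mutants arises from this lineage.

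The sequences just upstream of 4 of the genes are shown because Pax6, Neurod1 and Eomes are those that fell below and Zic1 is the member they are set against within arrays. Each is the stretch of 250 bases that ends at the annotated start, from RefSeq on GRCm38.p6, 5′ to 3′ on the gene's strand. For Pax6 it is, at the first of 2 annotated starts, chr2:105668646-105668895 (plus strand), for Neurod1 chr2:79456637-79456886 (minus), for Eomes chr9:118477939-118478188 (plus) and for Zic1 chr9:91365769-91366018 (minus). Capitals mark the E-box CANNTG, the core that basic helix-loop-helix factors bind, and TATATAA, which was chosen after the sequences had been read.
Pax6: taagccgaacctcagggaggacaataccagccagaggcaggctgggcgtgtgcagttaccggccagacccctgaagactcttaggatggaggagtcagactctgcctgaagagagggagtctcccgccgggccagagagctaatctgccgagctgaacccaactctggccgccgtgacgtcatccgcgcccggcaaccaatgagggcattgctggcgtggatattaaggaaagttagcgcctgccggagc
Neurod1: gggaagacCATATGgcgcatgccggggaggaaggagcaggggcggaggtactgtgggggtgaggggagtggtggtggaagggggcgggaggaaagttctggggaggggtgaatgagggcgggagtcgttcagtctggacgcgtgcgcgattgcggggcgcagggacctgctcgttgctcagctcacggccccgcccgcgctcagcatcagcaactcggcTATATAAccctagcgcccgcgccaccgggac
Eomes: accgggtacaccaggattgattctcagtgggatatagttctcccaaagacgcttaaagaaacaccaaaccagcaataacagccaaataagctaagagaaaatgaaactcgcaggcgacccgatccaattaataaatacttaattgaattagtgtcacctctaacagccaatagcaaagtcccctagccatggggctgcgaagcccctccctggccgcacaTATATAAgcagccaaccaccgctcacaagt
Zic1: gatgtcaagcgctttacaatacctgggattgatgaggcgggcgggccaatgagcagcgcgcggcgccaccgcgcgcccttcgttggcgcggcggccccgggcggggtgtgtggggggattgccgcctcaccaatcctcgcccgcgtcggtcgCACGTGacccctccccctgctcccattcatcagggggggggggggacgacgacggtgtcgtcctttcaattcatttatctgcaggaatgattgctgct
Neurod1 and Eomes both hold TATATAA, 31 and 30 bases before the start, and 3.04% of 32851 such windows of all genes hold it on either strand. The E-box in Neurod1 is CATATG at 242 bases before the start and the one in Zic1 is CACGTG at 98 bases. The window of the second Pax6 start, which is not shown, has CAAATG at 20 bases. An E-box is found in 66.2% of all windows. GGGTGGTC, the core bound by Gli factors of the hedgehog pathway, was in none of the 8 windows of the 7 members with an entry, 2 of them for Pax6, and is in 0.703% of all windows. These letters describe the windows only; no binding was measured.

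The arrays had median intensities of 4.11 to 4.39. Of all values 70.5% lay below 16, or 4 on the log2 scale, a range close to the lowest intensities and here called the low band. Over all probe sets the correlation was 0.9977 between GCP 1 and GCP 2, 0.9975 between GCP 3 and GCP 4 and 0.9939 to 0.9956 for the other combinations of GCP arrays, so the 4 GCP arrays may not be independent. The mean correlation of an array with its group was lowest for pretumor 3 in that group (0.990), and for tumor 2 and tumor 3 among tumors (0.985 each). The falls of Pax6, Neurod1 and Eomes below were also called without pretumor 3 and tumor 2. Where averaging each GCP pair ended a call named below, the text says so. All values are log2 intensity, and errors are SD over the arrays of a group. In these cell suspensions fewer cells of a type and less RNA per cell cannot be told apart.

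Against GCP samples, Pax6, Neurod1 and Eomes were lower in pretumor samples and lower in tumor samples. Zic1, Zic2 on its first probe set, Meis1 and En2 lay well above the low band. No probe set of these genes passed the test in any comparison. Atoh1 and En1 did not reach the low band's upper edge in any group mean. A linear model (limma, p-values adjusted by Benjamini-Hochberg over 12422 probe sets, called at an adjusted p under 0.05) called 4 of the 11 member probe sets lower and 0 higher in pretumor samples, where it called 4.36% of all probe sets, 2.69% lower. In tumor samples it called the same 4 lower and 0 higher, with 4.6% of all probe sets called and 3.19% lower. Both comparisons use the same GCP arrays. Between tumor and pretumor samples limma called 0 of the 11, of 0.998% of all probe sets called in either direction, and 2 had an unadjusted p under 0.05. The median difference of the 11 probe sets was -0.21 for pretumor over GCP, -0.48 for tumor over GCP and -0.03 for tumor over pretumor samples, and that of all probe sets was -0.01, 0.00 and 0.01.

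**Figure D1:**
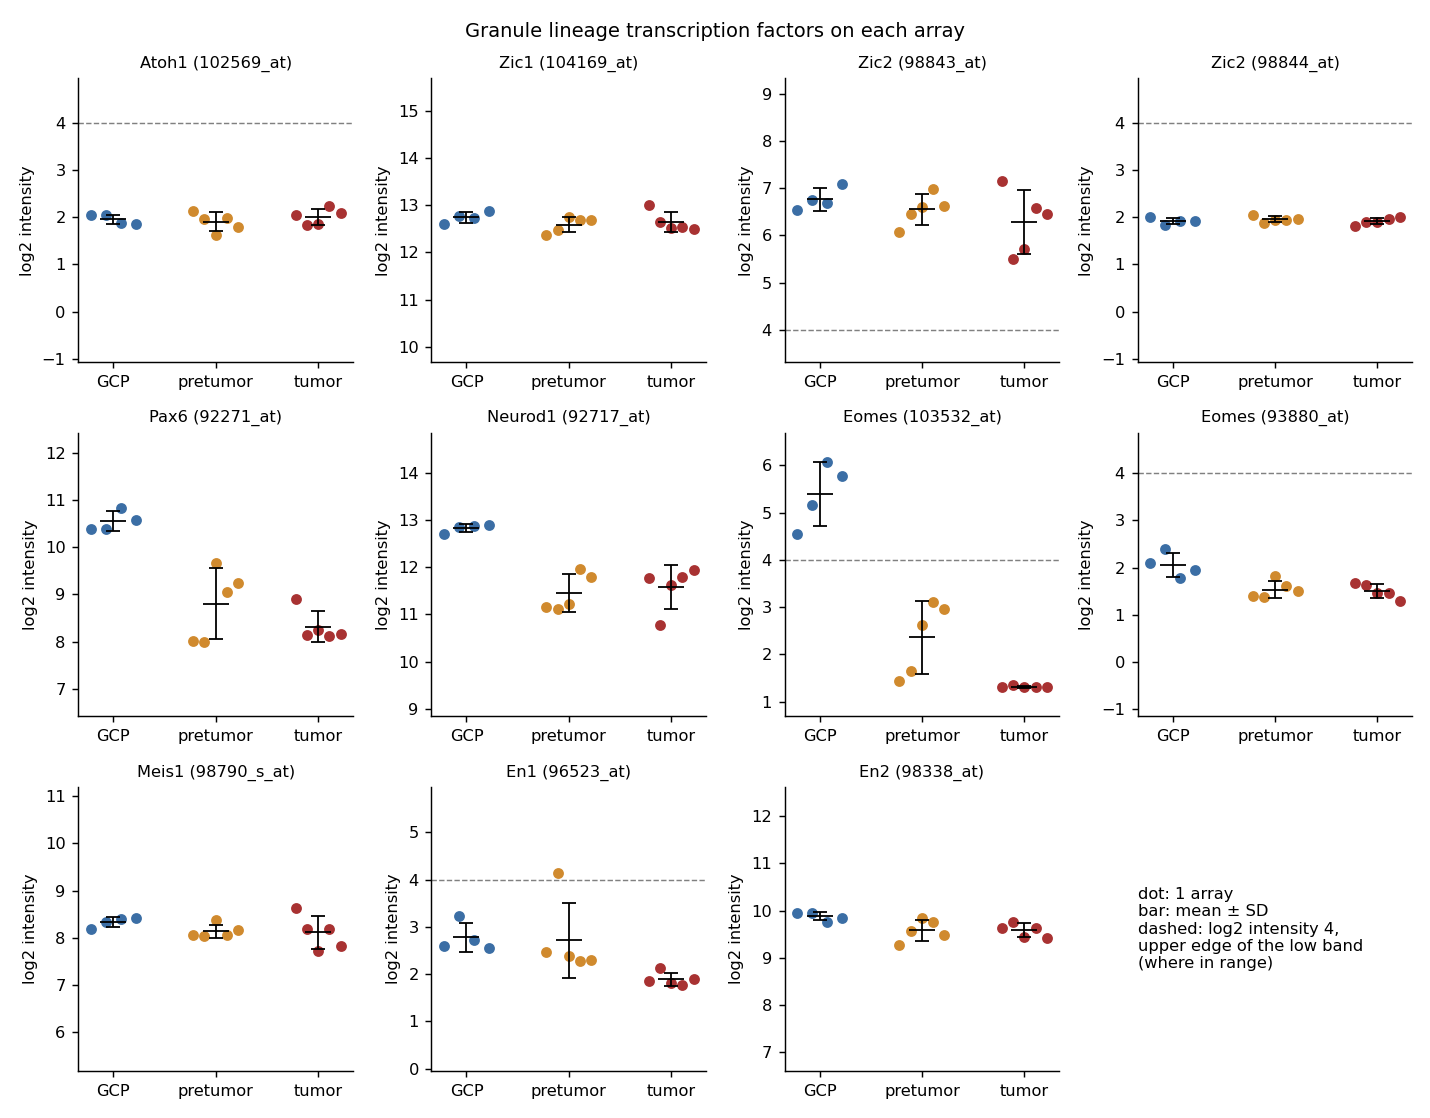
Log2 intensity of the 11 probe sets of the 9 genes on each array, in GCP, pretumor and tumor samples (dots are arrays, bars the mean ± SD, each panel spans the same number of log2 units, dashed line at 4). The GCP dots stand above all later dots for Pax6, Neurod1 and the first Eomes probe set, while those of Zic1, the first Zic2 probe set and Meis1 overlap the later groups.

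**Figure D2:**
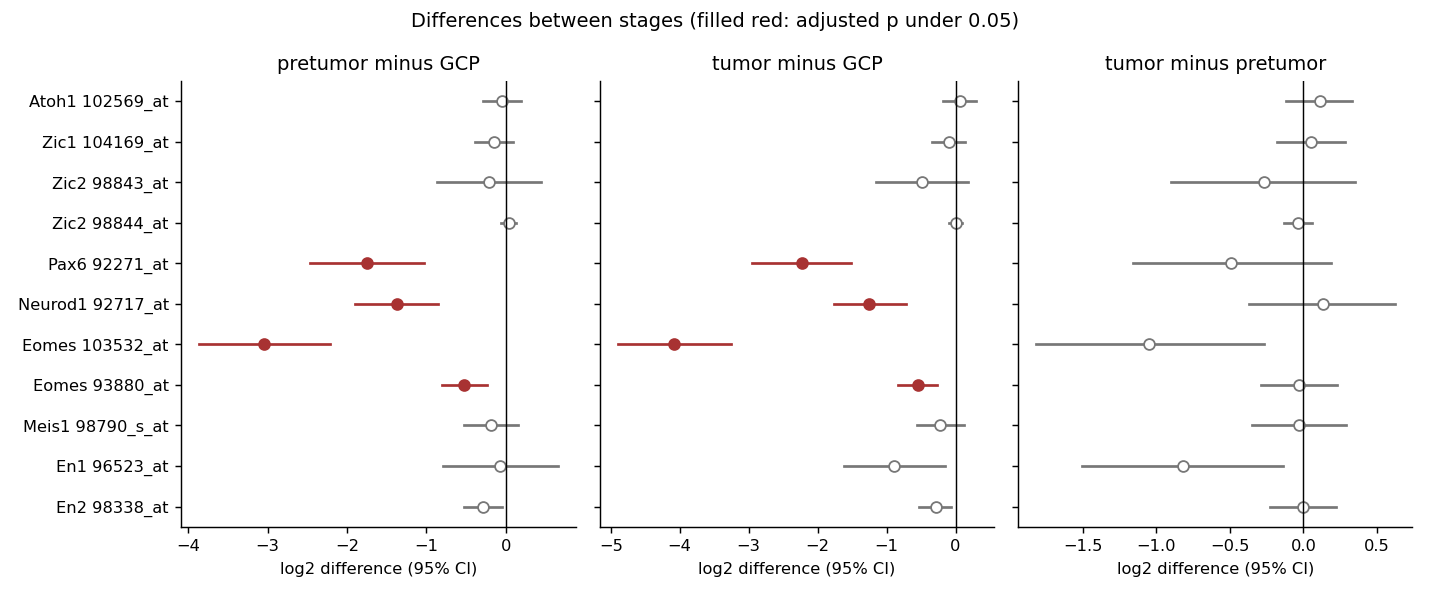
Log2 difference (later stage minus earlier stage, x axis, with its 95% confidence interval from limma) for each probe set in the 3 comparisons. Filled red points passed an adjusted p of 0.05: both Eomes probe sets, Pax6 and Neurod1 in the comparisons with GCP, and no probe set in tumor minus pretumor.

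Pax6 read 10.39, 10.38, 10.83 and 10.57 in GCP 1 to 4. In pretumor 1 to 5 it read 8.02, 8.00, 9.67, 9.05 and 9.24, and in tumor 1 to 5 it read 8.90, 8.14, 8.24, 8.11 and 8.17. No later array reached the lowest GCP array. The pretumor arrays were widely spread, with pretumor 1 and pretumor 2 as low as the tumor arrays and the other 3 between the tumor arrays and GCP. Pax6 fell to 8.80 ± 0.75 in pretumor samples (n = 5), against 10.54 ± 0.21 in GCP samples (n = 4), a 3.35-fold fall (log2 difference -1.75, 95% interval -2.46 to -1.03, limma adjusted p = 0.0108). It fell to 8.31 ± 0.33 in tumor samples, 4.70-fold below GCP (-2.23, interval -2.95 to -1.52, adjusted p = 0.00214). Tumor and pretumor samples differed by -0.49 (interval -1.16 to 0.19, adjusted p = 0.622). With the GCP pairs averaged the limma call in pretumor samples ended (adjusted p = 0.114, within a range of 0.00199 to 0.114 over 24 settings), while the call in tumor samples held in all 24 (adjusted p at most 0.0389).

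The ratio of 3' to 5' Gapdh signal, a measure of RNA quality, moved with Pax6 among the pretumor arrays, and its part in the result was not tested. On the log2 scale it was 0.79 and 1.08 in pretumor 1 and pretumor 2, where Pax6 was lowest, and 0.01 and 0.19 in pretumor 3 and pretumor 5, where it was highest. Pretumor 4 had a high ratio, 0.85, with Pax6 at 9.05. The ratio in pretumor 1, pretumor 2 and pretumor 4 was above that of every GCP array. Among GCP arrays it was 0.46 and 0.56 in GCP 1 and GCP 2. It was -0.02 in GCP 3 and in GCP 4, where Pax6 and the first Eomes probe set read higher. In tumor samples the ratio ran from 0.15 to 0.42, inside the range of -0.02 to 0.56 in GCP samples, and Pax6 was lower in all 5 tumor arrays than in all 4 GCP arrays. The same ratio for actin did not follow Pax6 among the pretumor arrays, with 4.13, the lowest of the group, in pretumor 1 and 4.87, the highest, in pretumor 2. In tumor samples the actin ratio ran from 3.93 to 4.85 and in GCP samples from 3.96 to 4.27, so tumor 1 (4.51) and tumor 2 (4.85) lay above all GCP arrays.

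Neurod1 read 12.70, 12.84, 12.86 and 12.90 in GCP 1 to 4. It read 11.16, 11.12, 11.22, 11.97 and 11.80 in pretumor 1 to 5 and 11.76, 10.78, 11.63, 11.79 and 11.94 in tumor 1 to 5. The GCP arrays lay close together and above every later array, and the pretumor and tumor arrays overlapped. Neurod1 averaged 11.45 ± 0.40 in pretumor samples against 12.83 ± 0.09 in GCP samples, a 2.59-fold fall (-1.37, interval -1.90 to -0.85, limma adjusted p = 0.00707). In tumor samples it averaged 11.58 ± 0.46, a 2.37-fold fall against GCP (-1.25, interval -1.77 to -0.72, adjusted p = 0.0109). Tumor minus pretumor was 0.13 (interval -0.37 to 0.62, adjusted p = 0.901). The mean was lower at the pretumor than at the tumor stage, by less than the spread of the arrays. With the GCP pairs averaged the limma calls in pretumor and tumor samples ended (adjusted p = 0.0886 and 0.121, within ranges of 0.00135 to 0.0886 and 0.00231 to 0.121 over 24 settings each).

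Eomes was measured by 2 probe sets. The first read 4.55, 5.15, 6.07 and 5.78 in GCP 1 to 4, above the low band in all 4. It read 1.43, 1.65, 2.63, 3.11 and 2.96 in pretumor 1 to 5, all in the low band. In tumor 2 it read 1.35, and the other 4 tumor arrays were at the floor of the values, 1.30. The 3 groups did not overlap, and pretumor 1 and pretumor 2 were again the lowest of their group. Pretumor samples averaged 2.35 ± 0.77 and GCP samples 5.39 ± 0.68, a fall of at least 2.62-fold against the upper edge of the low band (limma adjusted p = 0.000872). Tumor samples averaged 1.31 ± 0.02, which gives the same bound against GCP (adjusted p = 7.9e-05). Tumor samples were 1.05 below pretumor samples on the log2 scale, both inside the low band, and this did not pass (difference -1.05, interval -1.82 to -0.27, adjusted p = 0.254). Both falls against GCP held in all 24 settings, with adjusted p at most 0.0135.

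The other Eomes probe set lay in the low band on every array. It ran from 1.79 to 2.40 in GCP samples, from 1.37 to 1.82 in pretumor samples and from 1.30 to 1.67 in tumor samples. It was also called lower, by -0.52 in pretumor samples (limma adjusted p = 0.0405) and by -0.55 in tumor samples (adjusted p = 0.0302). These calls rest on differences inside the low band. The pretumor call ended without any 1 of GCP 1, 2 and 4, pretumor 1, 2, 4 and 5 or tumor 3 and 4 (adjusted p = 0.0502 to 0.105). The tumor call ended without any 1 of GCP 1, 2 and 4 or tumor 4 and 5 (adjusted p = 0.0557 to 0.0798). For Eomes both calls of this probe set also ended with the GCP pairs averaged (adjusted p = 0.162 in pretumor and 0.132 in tumor samples), with the compared groups alone (0.0801 and 0.0796), with the replicate block (0.151 and 0.123) and with a floor at 16. Of 7 listed unipolar brush cell genes, 1 had a single-symbol probe set, Calb2, which encodes calretinin. Calb2 lay in the low band (2.20 ± 0.06 in GCP, 2.36 ± 0.14 in pretumor, 2.12 ± 0.09 in tumor samples) and was not called.

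Zic1, a zinc finger factor of the whole granule lineage, read 12.60, 12.77, 12.72 and 12.87 in GCP 1 to 4. It read 12.36, 12.47, 12.75, 12.68 and 12.68 in pretumor 1 to 5 and 13.00, 12.64, 12.51, 12.54 and 12.49 in tumor 1 to 5. All 3 groups overlapped. Pretumor samples differed from GCP by -0.15 (interval -0.39 to 0.09, limma adjusted p = 0.621) and tumor samples by -0.10 (interval -0.34 to 0.14, adjusted p = 0.794). Zic2, its close relative, ran on its first probe set from 6.53 to 7.09 in GCP, from 6.08 to 6.99 in pretumor and from 5.49 to 7.15 in tumor samples. Tumor minus GCP was -0.48 for Zic2, with a wide interval of -1.15 to 0.18 (adjusted p = 0.539). The tumor arrays were the most spread, with tumor 2 and tumor 3 at 5.49 and 5.71 and tumor 1 at 7.15. Its other probe set stayed between 1.82 and 2.05 on all arrays, in the low band.

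Meis1 ran from 8.18 to 8.42 in GCP, from 8.05 to 8.38 in pretumor and from 7.73 to 8.64 in tumor samples. It differed from GCP by -0.19 in pretumor samples (interval -0.53 to 0.15, limma adjusted p = 0.686) and by -0.22 in tumor samples (interval -0.56 to 0.12, adjusted p = 0.621). The suffix of its probe set name, _s_at, marks probes that can bind more than 1 transcript, so its level may include a relative. En2, an engrailed factor active in granule precursors, read 9.95, 9.95, 9.77 and 9.85 in GCP 1 to 4. It ran from 9.27 to 9.84 in pretumor samples, which overlapped GCP, and from 9.43 to 9.77 in tumor samples. Every tumor array lay below every GCP array, by a gap so small that both edges round to 9.77. En2 differed from GCP by -0.29 in pretumor and -0.29 in tumor samples (intervals -0.52 to -0.05 and -0.53 to -0.06). With an unadjusted p of 0.0202 and 0.0187 it did not pass after adjustment (limma adjusted p = 0.193 and 0.185).

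Atoh1, the factor that defines granule cell precursors, ran from 1.85 to 2.04 in GCP, from 1.63 to 2.14 in pretumor and from 1.83 to 2.24 in tumor samples. All 14 arrays lay deep in the low band, so its defining marker was not seen on the arrays labelled GCP and its change between stages cannot be read here. En1, the relative of En2, ran from 2.56 to 3.23 in GCP and from 1.77 to 2.12 in tumor samples, without overlap. In pretumor samples it ran from 2.28 to 4.13, with pretumor 2 alone above the low band. The difference of tumor from GCP samples was -0.89 for En1 (interval -1.62 to -0.16, limma adjusted p = 0.195, within a range of 0.00294 to 1.00 over 23 settings). The lowest of these came without pretumor 2, an array outside that comparison that widens the shared spread.

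Pax6 and Neurod1 passed the test and Zic1 did not, so their difference was also taken within arrays. Because the pairs were chosen from these unequal calls on the same arrays, the tests are no independent evidence of unequal change. The 9 exact permutation tests over samples were adjusted together. Log2 Pax6 minus log2 Zic1 averaged -3.79 ± 0.60 in pretumor samples and -2.20 ± 0.22 in GCP samples, a difference of -1.59 (two-sided exact permutation p = 0.0159, adjusted p = 0.0286). In tumor samples it averaged -4.33 ± 0.15, which is -2.13 from GCP (exact p = 0.00794, the smallest these numbers of arrays allow, adjusted p = 0.0286). Neurod1 minus Zic1 averaged -1.13 ± 0.34 in pretumor samples and 0.09 ± 0.05 in GCP samples, a difference of -1.22 (exact p = 0.00794, adjusted p = 0.0286). In tumor samples it averaged -1.06 ± 0.51, a difference of -1.15 from GCP (exact p = 0.0159, adjusted p = 0.0286). None of these groups overlapped with GCP.

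The third pair was Pax6 with Neurod1. Pax6 minus Neurod1 averaged -3.27 ± 0.50 in tumor samples and -2.29 ± 0.18 in GCP samples, a difference of -0.98 without overlap (exact permutation p = 0.0159, adjusted p = 0.0286). In pretumor samples it averaged -2.66 ± 0.66 and overlapped GCP (difference -0.37, exact permutation p = 0.333, adjusted p = 0.375). Without pretumor 3 that difference was -0.65 (exact permutation, adjusted p = 0.0429). Between tumor and pretumor samples 0 of these 3 pairs passed (exact permutation, adjusted p = 0.173, 0.81 and 0.173), and without pretumor 2 Pax6 minus Zic1 did, at -0.71 (adjusted p = 0.0476). Without any 1 tumor array, or without pretumor 1, 4 or 5 in the comparisons of pretumor with GCP, the tests of Pax6 and Neurod1 against Zic1 gave an adjusted p of 0.0514 where they had passed. Where the array left out belonged to a compared group, the exact permutation p was 0.0286, the smallest that the remaining arrays allow. Leaving out a tumor array did not change the pretumor and GCP values, only the adjustment. These losses therefore do not show dependence on a single array. The test of Pax6 against Neurod1 in tumor samples gave an adjusted p of 0.0514 to 0.0643 without any 1 tumor or GCP array. With the GCP pairs averaged, all 5 differences that had passed did not (adjusted p = 0.143 to 0.171). The exact permutation p cannot go below 0.0476 there before adjustment, so this setting has little power to pass. These 5 differences kept their sign without any 1 array. Zic1 minus Zic2, a pair chosen earlier, differed by 0.06 for pretumor over GCP, by 0.38 for tumor over GCP and by 0.32 for tumor over pretumor samples (exact permutation, adjusted p over these 3 of 0.627, 0.512 and 0.512). The other chosen pairs, En2 with En1 and Neurod1 with Atoh1, were not tested because En1 and Atoh1 lay in the low band.

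**Figure D3:**
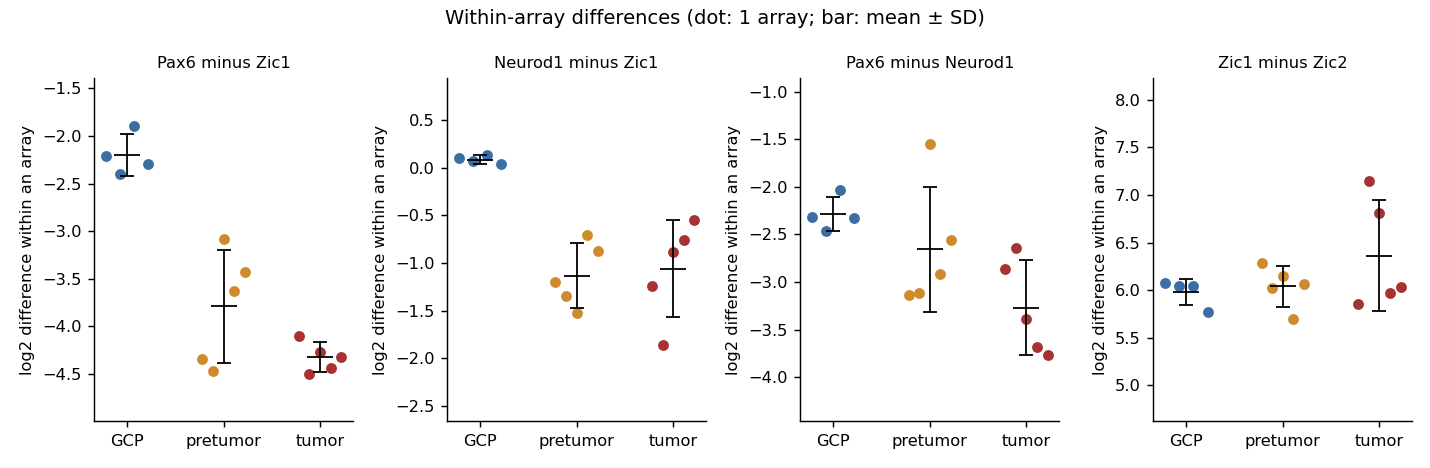
Difference in log2 intensity between 2 genes on the same array, for GCP, pretumor and tumor samples (dots are arrays, bars the mean ± SD; the zero point has no meaning across probe sets). Pax6 minus Zic1 averages -2.20, -3.79 and -4.33 over the 3 stages, while Zic1 minus Zic2 overlaps in all 3.

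Within a group the members did not all vary together. The deviations of arrays from their group means, over 14 arrays that share these group means, gave r = 0.78 for Pax6 with Zic1, 0.82 for Meis1 with Zic1 and 0.65 for Zic2 with Zic1. For Zic2 with Neurod1 r was 0.70 and for Pax6 with Eomes it was 0.72. The latter was 0.86 within pretumor and -0.29 within tumor samples, where Eomes lay at or next to the floor. Neurod1 showed little of this with Meis1 (r = -0.08) or Zic1 (0.23, with 0.56 within pretumor and -0.04 within tumor samples). These correlations are descriptions and carry no test. Tumor 1 was high in its group for Pax6, Zic1, Zic2 and Meis1, and tumor 2 was low for Neurod1 and Zic2. Pretumor 1 and pretumor 2, which had high Gapdh ratios, were the lowest of their group for Pax6, Neurod1, Eomes and Zic1. Pretumor 4 also had a high ratio, 0.85, and was the highest of its group for Neurod1 (11.97) and Eomes (3.11).

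**Figure D4:**
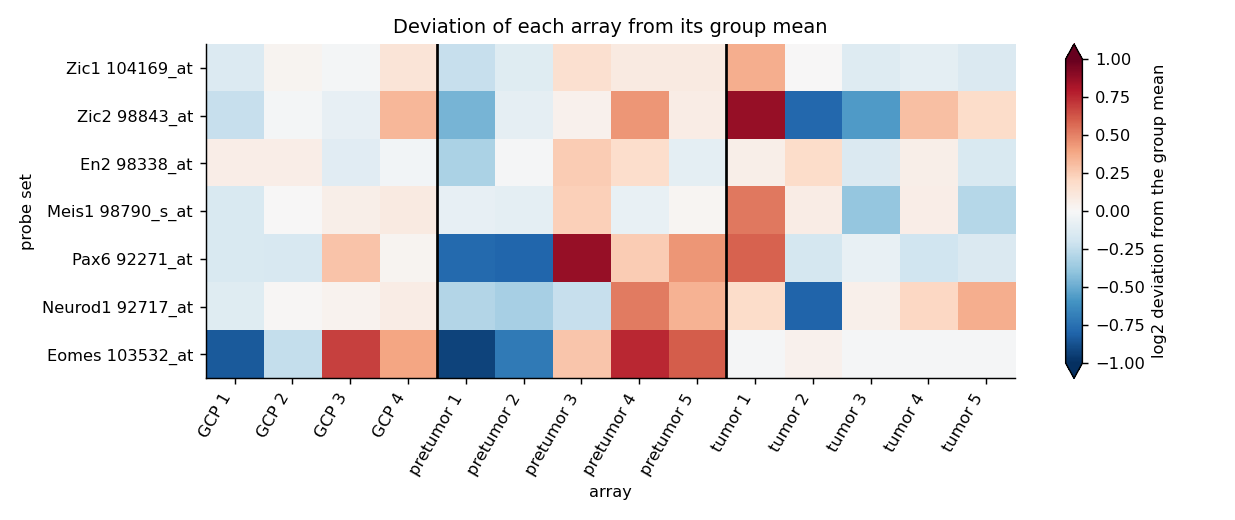
Log2 deviation of each array (columns) from the mean of its own group for the 7 probe sets (rows) that reach the upper edge of the low band in a group mean. Red is above and blue below the group mean; pretumor 1 and pretumor 2 are below it for Pax6, Neurod1, Eomes and Zic1.

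The genes whose pattern over the 14 arrays was most like that of a member were taken from 2990 genes above the low band, by Pearson's r, as a description. For Pax6 they were Cd47, a cell surface protein (r = 0.95), Pgm1, a phosphoglucomutase (0.94), and Maoa, a monoamine oxidase (0.94). For Neurod1 they were Stmn2, a growth cone protein (0.94), Nsdhl, a sterol dehydrogenase (0.93), and Idh1, an isocitrate dehydrogenase (0.93). Cd47 averaged 8.89 ± 0.27 in pretumor samples and 10.24 ± 0.44 in GCP samples, and Stmn2 averaged 10.48 ± 0.70 in tumor samples and 11.83 ± 0.10 in GCP samples. The members that were not called had as neighbours genes that were not called either. Because r was taken over all 14 arrays, differences between groups included, this likeness in calls follows in part from the choice. For Meis1 they were Pkp4 (0.89), Mki67, a marker of dividing cells (0.87), and Prkd3 (0.87). For Zic1 they were Farsb (0.90), Bzw1 (0.90) and Tra2b (0.87), for Zic2 Lbr (0.90), Gphn (0.87) and Ebf1 (0.85), and for En2 Vopp1 (0.87), Vcan (0.85) and Macir (0.79). Mki67 averaged 10.51 ± 0.17 in GCP, then 10.36 ± 0.32 in pretumor and 10.47 ± 0.65 in tumor samples.

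A list of partners and relatives of these factors had 37 genes measured, 23 of them in the low band in every group. In pretumor samples 1 rose and 3 fell, in tumor samples 1 rose and 2 fell against GCP, and against pretumor samples 0 rose and 1 fell in tumor samples. Of all 8251 genes 1.99% rose and 3.25% fell in pretumor samples, and 1.70% rose and 3.93% fell in tumor samples, against GCP. In tumor against pretumor samples 0.133% of genes rose and 0.957% fell. The list's median difference was -0.07, -0.01 and 0.05 in these comparisons, and that of all genes was -0.01, 0.00 and 0.02. Neurod4, a relative of Neurod1, rose where Neurod1 fell. It averaged 5.57 ± 0.47 in pretumor and 4.32 ± 0.29 in GCP samples, a 2.39-fold rise (limma adjusted p = 0.0221), and 5.67 ± 0.45 in tumor samples, a 2.55-fold rise against GCP (adjusted p = 0.0144). The Neurod4 call in pretumor samples ended without any 1 of GCP 1, GCP 2 and pretumor 2, with a floor at 16 and with the GCP pairs averaged; the call in tumor samples ended only with the GCP pairs averaged, of 24 settings. Id4, an inhibitor that binds basic helix-loop-helix factors, averaged 3.91 ± 0.11 in tumor and 5.17 ± 0.16 in GCP samples, a fall of at least 2.25-fold (adjusted p = 0.000176) that held in all 24 settings. Id4 averaged 4.63 ± 0.28 in pretumor samples, a fall against GCP (limma adjusted p = 0.0395). This call ended without any 1 of 9 arrays (GCP 1 to 4, pretumor 1, 3 and 5, tumor 1 and 4). It also ended with the GCP pairs averaged and with pretumor 3 and tumor 2 left out. The Id4 fall in tumor against pretumor samples (limma adjusted p = 0.0176) ended without pretumor 1 or tumor 4. Both of these calls ended with a floor at 16, with the compared groups alone and with the replicate block. Hes5, a Notch target, and Neurog2 fell in pretumor samples and Pax3 in tumor samples, all within the low band; the Hes5 call ended without GCP 4, the others ended without any 1 of at least 6 arrays, and all 3 with the GCP pairs averaged.

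Most partners above the low band were not called. Nhlh1, a basic helix-loop-helix factor of early granule neurons, averaged 6.94 ± 0.25 in GCP, then 6.90 ± 0.55 in pretumor and 7.08 ± 0.33 in tumor samples. Tcf4 and Tcf12, general partners of such factors, averaged 12.23 ± 0.35 and 10.14 ± 0.35 in tumor samples against 12.12 ± 0.15 and 10.24 ± 0.15 in GCP samples. Nfix, a nuclear factor of maturing granule neurons, averaged 12.80 ± 0.23 in tumor and 13.21 ± 0.08 in GCP samples (limma adjusted p = 0.0828). Pbx3, a cofactor of the Meis and engrailed families, averaged 10.55 ± 0.83 in tumor and 9.29 ± 0.38 in GCP samples (adjusted p = 0.0951). Genes in this paragraph other than Nfix and Pbx3 had an adjusted p of at least 0.899 in tumor against GCP samples, and all of them were named after their values had been seen.

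Among hedgehog targets and other genes of dividing precursors, 12 were measured and 3 lay in the low band in every group. Against GCP 0 of 12 were called in pretumor samples and 1 rose in tumor samples, where 1.41% of all probe sets rose. It was Bmi1, a Polycomb protein that drives precursor growth, at 10.54 ± 0.37 in tumor and 9.63 ± 0.22 in GCP samples, a 1.89-fold rise (limma adjusted p = 0.0374) that ended without any 1 of 8 arrays (GCP 1 to 4, pretumor 4, tumor 1, 4 and 5) and with the GCP pairs averaged. Between tumor and pretumor samples 0 of 12 were called. Ccnd2, a cyclin of dividing precursors, averaged 10.36 ± 0.59 in pretumor and 10.18 ± 0.88 in tumor samples against 10.54 ± 0.55 in GCP samples (adjusted p = 0.955 and 0.851). Of 21 measured genes of maturing granule neurons 5 fell and 0 rose in pretumor samples, and the same 5 fell and 0 rose in tumor samples; between these later groups 0 of 21 were called. Over all genes 3.25% fell in pretumor and 3.93% in tumor samples. The list's median difference was -0.07 for pretumor and -0.36 for tumor samples over GCP. Unc5c, a netrin receptor of migrating granule cells, fell at least 2.90-fold in both (adjusted p = 1.82e-07 in pretumor and 1.1e-07 in tumor samples), and Kcnd2, a potassium channel of granule neurons, at least 4.81-fold (adjusted p = 3.2e-05 and 1.21e-05). Cntn1, an adhesion molecule of axons, averaged 4.41 ± 0.64 in tumor and 6.94 ± 0.55 in GCP samples, a 5.77-fold fall (adjusted p = 0.00628) that ended with the GCP pairs averaged. Its fall in pretumor samples, 3.52-fold (adjusted p = 0.0381), ended without any 1 of 8 arrays (GCP 2 to 4, pretumor 1, 2, 4 and 5, tumor 4) and with the GCP pairs averaged. Cbln1, a synapse organiser, fell with all group means in the low band, and both its calls ended with the GCP pairs averaged and with a floor at 16. Syt1, a synaptic vesicle protein, ran from 1.86 to 4.70 in GCP samples, crossing the edge of the low band, and lay between 1.30 and 2.20 in later samples. Its call in pretumor samples ended in 15 of 23 settings (without any 1 of 9 arrays, and with the GCP pairs averaged), and that in tumor samples in 18 (without any 1 of 12 arrays, and likewise). Dcx, a microtubule protein of young neurons, averaged 10.27 ± 0.40 in tumor and 11.09 ± 0.18 in GCP samples and did not pass (adjusted p = 0.0509). Gabra6, a receptor subunit of mature granule neurons, was in the low band in every group; it was picked after the values had been seen.

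**Figure D5:**
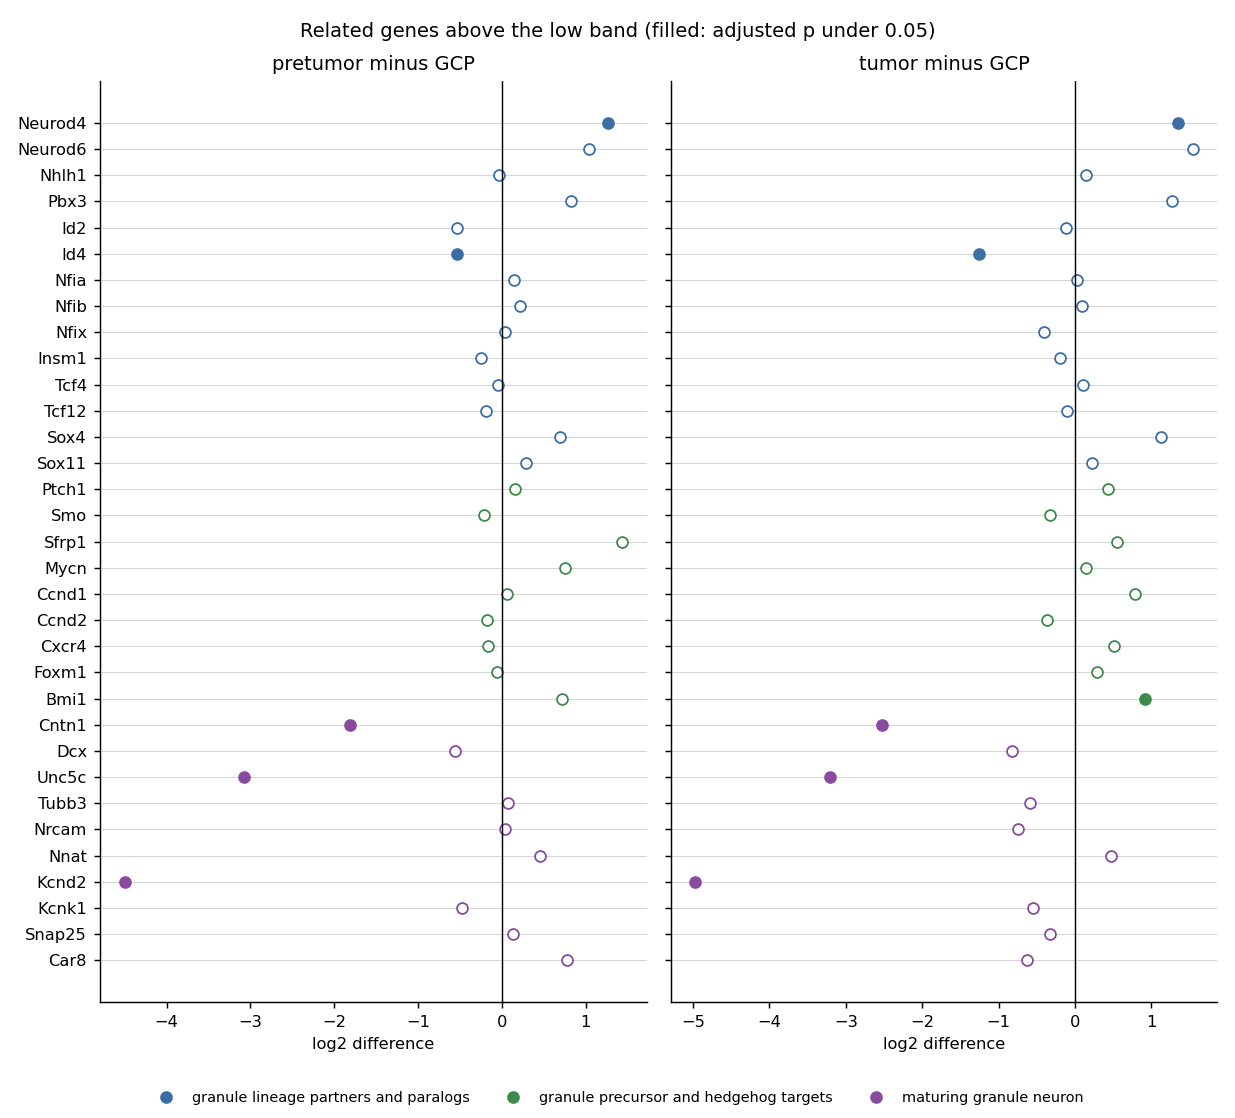
Log2 difference against GCP in pretumor (left) and tumor samples (right) for the genes of 3 lists that reach the upper edge of the low band: partners and relatives, precursor and hedgehog genes, and maturing granule neuron genes. Filled points passed an adjusted p of 0.05; Neurod4 lies to the right of 0 and Id4, Unc5c, Kcnd2 and Cntn1 to the left in both panels.

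Markers of other cells in the suspension moved between the same groups, and their part in the falls of Pax6, Neurod1 and Eomes was not tested. Over all genes 1.99% rose and 3.25% fell in pretumor samples, and 1.70% rose and 3.93% fell in tumor samples, which is the background for the counts that follow. The summed linear intensity of 9 astrocyte and Bergmann glia genes, 3 of them in the low band, ran from 1592 to 5851 in pretumor and from 1075 to 2875 in tumor samples, against 10253 to 14261 in GCP samples. In tumor samples 4 of these 9 fell and 0 rose. In pretumor samples 1, Fabp7, fell and 1, Aldoc, rose, the latter inside the low band. The list's median difference was -0.18 for pretumor and -0.58 for tumor samples over GCP. The sum mostly follows Fabp7, whose GCP mean stood far above that of Apoe, the next highest at 9.77. Fabp7, which binds fatty acids in radial and Bergmann glia, averaged 9.78 ± 0.40 in pretumor and 9.40 ± 0.85 in tumor samples against 13.24 ± 0.22 in GCP samples (limma adjusted p = 0.00039 and 0.000108). Of 12 GABAergic and Purkinje cell genes, 7 in the low band, 3 fell in pretumor and 4 in tumor samples and 0 rose. Their sum ran from 181 to 303 in pretumor and from 73 to 233 in tumor samples, against 364 to 485 in GCP samples. This sum mostly follows Gdf10, whose GCP mean was 8.10, with Gad1 next at 6.37. Gdf10 was called lower in tumor samples but not in pretumor samples (limma adjusted p = 0.00808 and 0.48). Of 10 oligodendrocyte genes, 4 in the low band, 4 rose in pretumor samples and 1 fell in tumor samples. Their sum ran from 273 to 404 in GCP, from 759 to 1530 in pretumor and from 157 to 303 in tumor samples. Of 14 microglia and macrophage genes, 10 in the low band, Ctss and Lyz2 rose in both later groups and the other 12 were not called. The sums were 813 to 1365 in pretumor and 637 to 1896 in tumor samples against 155 to 384 in GCP samples. They mostly follow Ctss and Lyz2 in the later groups, and the list's median difference was 0.10 for pretumor and 0.10 for tumor samples over GCP. Of 13 endothelial and meningeal genes, 9 in the low band, 6 fell and 1 rose in pretumor samples and 8 fell in tumor samples. Their sums overlapped between pretumor (514 to 739) and GCP samples (489 to 995), and tumor samples lay at 63 to 324. The sum mostly follows Dcn in GCP samples (mean 8.92, then 6.52 in pretumor samples, not called). In pretumor samples it mostly follows Ptgds, the 1 that rose, from 5.43 ± 0.87 in GCP to 8.82 ± 0.28 (limma adjusted p = 0.00159). The overlap therefore says little of the other genes, of which Cdh5, Tie1, Kdr, Cldn5, Col1a2 and Col3a1 fell in pretumor samples. Of 3 red blood cell genes 2 fell in tumor samples, where the sum was 13 to 387 against 1919 to 4371 in GCP samples. The pretumor calls of Slc32a1, Mag, Cldn5 and Col1a2 and the tumor calls of Aldoc, Ctss, Vwf, Col1a2, Hba-a1 and Hbb-b2 each ended without at least 1 single array. With the GCP pairs averaged these calls ended too, as did those of Gad1, Mog, Car2 and Ctss in pretumor samples and of Gdf10 and Gja1 in tumor samples. Many of the calls counted above lie wholly inside the low band. These are the calls of Lhx5, Slc32a1, Aldoc, Mag, Cdh5, Tie1, Tek, Kdr, Vwf and Col1a2 against GCP. All of them ended with a floor at 16, as did the pretumor call of Mog.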

How the data were processed

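RNA of 14 samples was measured on 1 array each. The values deposited are linear intensities, 1 for each probe set on each array. The authors' summarisation and normalization methods are not given in the sources used here. Array medians lay within 0.094 log2 units, so no further normalization was applied. After setting aside 66 control probe sets, values were floored at their 10th percentile (2.46) and taken to log2. Group means were fitted with limma 3.58.1 (R 4.3.3, 11 residual and 0.83 prior degrees of freedom), and p-values, two-sided, were adjusted over 12422 probe sets. The code was tested on simulated data. Precision is limited by the number of arrays.

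Symbols came from the platform annotation: 10833 probe sets have 1 symbol, 396 several and 1193 none. A gene with several probe sets is represented in lists by the one with the highest mean. Where a group mean lay below 16 a fold is a lower bound against 16; that limit was chosen after seeing the data. Named were all member probe sets, the 3 genes most like each member above 16, and up to 4 called genes per list and comparison, or its highest gene; others are stated as such. Members, lists and tests were chosen with earlier results of these data known. Alternatives were other floors, a pseudocount, quantile normalization, a filter on dim probe sets, a trended and robust fit, the compared groups alone, the replicate number as a block, each array left out, GCP pairs averaged and, added after seeing the data, pretumor 3 and tumor 2 left out. Sequences came from RefSeq tables (GRCm38.p6), which held 7 of the 9 members.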

Additional observations from a re-analysis of the deposited data

Results flagged for a closer look

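In 45 groups of member values, each array was set against the rest of its group by Dixon's test at the 95% level, by which chance flags about 1 in 20 groups. In 5 an array stood apart. Pax6 was 8.90 in tumor 1, against 8.11 to 8.24 in the other tumor arrays. Neurod1 was 10.78 in tumor 2, against 11.63 to 11.94. En1 was 4.13 in pretumor 2, against 2.28 to 2.47. The first Eomes probe set was 1.35 in tumor 2, where the other 4 tumor arrays sat at the floor of 1.30, so that gap has no meaning. Zic1 minus Zic2 was 5.77 in GCP 4, against 6.04 to 6.07.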

How the results depend on the processing

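The counts of called probe sets over the whole array depend on the setting. They were 541 for pretumor over GCP, 571 for tumor over GCP and 124 for tumor over pretumor samples. With a floor at 16 they were 194, 232 and 32, and with the GCP pairs averaged 168, 198 and 69. With the compared groups alone they were 335 in tumor minus GCP and 50 in tumor minus pretumor. Without 1 array they ran from 331 to 624, from 338 to 712 and from 70 to 148. The lowest counts against GCP came without GCP 4, and those between tumor and pretumor without pretumor 1 (72), pretumor 2 (70) or tumor 4 (70). The member calls, 4, 4 and 0 of 11, ran from 3 to 4, from 3 to 5 and stayed at 0 without 1 array, and with the GCP pairs averaged they were 1 and 2, where only 2 GCP values remain.

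Replicate numbers did not pair the arrays: same-numbered arrays had deviations that correlated between -0.332 and 0.567, and 3 of 14 arrays matched best to their own number. With the replicate block the count in tumor minus pretumor was 76, and the member calls were 3, 3 and 0, with only the second Eomes probe set losing its calls. The exact sign-flip test over shared numbers, which cannot go below 0.125 against GCP, gave Pax6 minus Zic1 -1.68 in pretumor and -2.13 in tumor samples, Neurod1 minus Zic1 -1.29 and -1.27, and Pax6 minus Neurod1 -0.86 in tumor samples. With the GCP pairs averaged these 5 differences were -1.59, -2.13, -1.22, -1.15 and -0.98, with 0 of them passing after adjustment. In that setting the exact permutation p cannot go below 0.0476 before adjustment. Without 1 array they ran from -1.77 to -1.42, from -2.20 to -2.03, from -1.33 to -1.12, from -1.27 to -0.94 and from -1.14 to -0.86. Without 1 array Pax6 minus Neurod1 in pretumor samples ran from -0.65 to -0.25 and Pax6 minus Zic1 in tumor minus pretumor from -0.71 to -0.36. With pretumor 3 and tumor 2 left out, Pax6 minus Neurod1 in pretumor samples was -0.65 and passed.

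Of 780 values of member probe sets under alternatives, 25 lost a call, 2 gained one and 0 reversed a called direction. The planned tests of En2 with En1 and Neurod1 with Atoh1 were not run. Low intensity limits what can be said of Atoh1, En1 and the second probe sets of Eomes and Zic2.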
